A study of Mus musculus with 5 samples.

Results

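The mouse microRNAs mmu-miR-103, mmu-miR-107, mmu-miR-221 and mmu-miR-222, written from here without the species prefix, were followed across 3 fat depots and 2 muscles. They were taken by name from the expression table, and they make up 4 of the 598 mouse microRNAs that it lists. All 4 names were found, each with its own probe. The fat was brown, inguinal white or epididymal white, and the muscles were gastrocnemius and soleus, from C57BL/6 mice aged 2 to 3 months, with no treatment or allele named in the labels. Total RNA of each tissue was hybridised to a 1-colour miRCURY LNA array, whose capture probes contain locked nucleic acids, modified nucleotides that tighten binding to short RNAs. Each tissue had 1 array, and the sources used here do not say how many animals gave its RNA. No difference therefore has a replicate check, no test was run, and the errors below are the spread of the 4 spots of a probe on an array, which covers spotting and reading noise alone.

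MicroRNAs guide silencing proteins to messenger RNAs, chiefly through the seed, bases 2 to 8 from the 5′ end. miR-103 and miR-107 are made from introns of pantothenate kinase genes, whose enzymes start coenzyme A synthesis. In mice they are known to lower insulin sensitivity when raised in liver and fat, with caveolin of the adipocyte membrane among their targets. miR-221 and miR-222 are processed from one X-linked cluster, are best known for repressing the cell cycle inhibitor gene Cdkn1b and the receptor gene Kit in dividing and vascular cells, and have been reported as raised in obese fat. Each pair is commonly read as one unit because its members share a seed.

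The mature sequences are shown first because the reading of each pair rests on how alike they are. They are RefSeq entries on GRCm38.p6, 5′ to 3′, with the seed in capitals.
mmu-miR-103-3p: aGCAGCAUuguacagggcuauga
mmu-miR-107-3p: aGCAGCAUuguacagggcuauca
mmu-miR-221-3p: aGCUACAUugucugcuggguuuc
mmu-miR-222-3p: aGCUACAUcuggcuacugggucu
miR-103 and miR-107 were identical at 22 of 23 positions, the exception being G22C, counted from the 5′ end with the miR-103 base first. miR-221 and miR-222 were identical over the first 8 bases, differed first at U9C, and matched at 11 of 23 positions without gaps. The sources used here give no probe sequences for the array. A probe for miR-103 may therefore also bind miR-107, and the reverse, so the separate values of these 2 microRNAs are uncertain; cross-binding was not tested. Past the seed, miR-221 and miR-222 differ at most positions.

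The loci show that the miR-103 probe can read the product of more than 1 gene. Mature miR-103 is encoded at chr11:35782447-35782469 on the plus strand by Mir103-1, within the span of Pank3, and at chr2:131288103-131288125 on the plus strand by Mir103-2, within the span of Pank2. Mature miR-107 is encoded at chr19:34820700-34820722 on the minus strand by Mir107, within the span of Pank1. Each of the 3 hosts is a protein-coding pantothenate kinase gene on the same strand as its microRNA. The hairpin precursors, with the mature strand in capitals, are given to show that the identical mature miR-103 lies in 2 different precursors.
Mir103-1: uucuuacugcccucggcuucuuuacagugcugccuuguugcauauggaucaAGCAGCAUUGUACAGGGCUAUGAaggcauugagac
Mir103-2: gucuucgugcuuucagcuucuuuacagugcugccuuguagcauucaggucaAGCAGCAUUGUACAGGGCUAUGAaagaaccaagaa
Mir107: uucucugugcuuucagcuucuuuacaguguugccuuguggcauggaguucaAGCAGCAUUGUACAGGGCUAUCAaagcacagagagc
The array value of miR-103 can hold the product of either locus or of both, and cannot be split between Pank3 and Pank2. miR-221 is encoded at chrX:19146307-19146329 and miR-222 at chrX:19146901-19146923, both on the minus strand. Their hairpins lie 504 bases apart, with 0 annotated genes wholly between them. The star strands of these precursors are not represented on the array.

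A value is given as normalized intensity, the authors' background-subtracted intensity divided by a scale that the file headers call a median of the array, so that 1 stands for that scale. The scale was read from the deposited columns and could not be rebuilt exactly from the probes. A microRNA counted as detected where its background-subtracted intensity reached 50 units, the authors' own limit, and 148 to 170 of the 598 mouse microRNAs did so per array. Empty spots read at most 2.5 units and negative control spots at most 6.0. The spot SD of log2 intensity had a median of 0.151 over detected probes. Spike-ins, synthetic RNAs added to the sample, were lowest on the inguinal array, at 0.651 of their geometric mean over the 5 arrays (median of 5 spike-ins). They were at 0.828 on the epididymal array and at 1.19 to 1.26 on the others. The members' calls that involve inguinal fat are therefore given also without it or under other scalings, whereas marker sums are given on the authors' scale alone. Marker microRNAs went with the labels, but their choice may reflect earlier results of these data, so this is no independent check. At least 2-fold higher in brown fat than in both white depots were 6 of 7 brown adipocyte markers, beside 7.89% of 190 microRNAs. At least 2-fold higher in both muscles than in all 3 fat depots were 6 of 7 striated muscle markers, beside 8.21% of 207. Of the 4 striated muscle markers detected in any fat depot, 3 were also higher in brown than in both white depots.

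miR-103 was highest in epididymal fat and lowest in the muscles. Its normalized intensity was 2.16 in brown fat, 2.17 in inguinal fat, 4.52 in epididymal fat, 1.05 in gastrocnemius and 0.853 in soleus. All 4 epididymal spots, between 3.91 and 4.91, were above every spot of the other arrays, of which the brightest read 2.30. The spots of brown fat, 1.71 to 2.25, overlapped those of inguinal fat, 2.08 to 2.30, and these depots could not be ordered. The 2 muscles also overlapped. On the log2 scale the epididymal level exceeded the inguinal level by 1.06 (spot SE 0.08) and the brown level by 1.07 (spot SE 0.12), and the brown and inguinal levels differed by -0.01 (spot SE 0.09).

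miR-107 was highest in brown fat, and its other 4 levels were not fully resolved. Its normalized intensity was 0.584 in brown fat, 0.229 in inguinal fat, 0.215 in epididymal fat, 0.129 in gastrocnemius and 0.173 in soleus. Every brown spot was above every spot of the other 4 arrays, the dimmest brown spot at 0.314 and the brightest spot elsewhere at 0.293. The spots of inguinal fat, epididymal fat and soleus overlapped from one to the next in order of level, so their order was not resolved. Gastrocnemius had the lowest level, with spots below those of soleus, but epididymal spots, down to 0.0833, reached below it. This probe was read with unusual noise. Its 4 brown spots read 0.545, 0.314, 0.803 and 0.624, and its epididymal spots read 0.162, 0.268, 0.0833 and 0.270. The spot SD of log2 was 0.572 in brown fat and 0.801 in epididymal fat, above 98.1% and 99.4% of the detected probes on those arrays. In gastrocnemius its 52.5 units were just over the detection limit.

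On the authors' scale miR-222 was highest in epididymal fat, next in inguinal fat and lowest in brown fat. Its normalized intensity was 0.314 in brown fat, 0.779 in inguinal fat, 1.20 in epididymal fat, 0.406 in gastrocnemius and 0.451 in soleus. The spots of each white depot were above all spots of the other 3 tissues, and those of epididymal fat, from 0.864, were above those of inguinal fat, up to 0.847. Brown fat, at 0.256 to 0.341, lay below gastrocnemius, at 0.358 to 0.454, without overlap. In soleus 1 spot stood apart at 69 units against 195 to 230 for the other 3, so that soleus overlapped both brown fat and gastrocnemius.

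miR-221 was also highest in epididymal fat. Its normalized intensity was 0.215 in inguinal fat, 0.292 in epididymal fat, 0.155 in gastrocnemius and 0.168 in soleus. In brown fat it was read at 44.5 units, under the detection limit, at a normalized 0.0998 that is not treated as a measured level. The spots of inguinal and epididymal fat overlapped, as did those of soleus and gastrocnemius and those of gastrocnemius and brown fat. The white depots lay above all spots of both muscles and of brown fat. The plot of levels by tissue shows these spreads.

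**Figure D1:**
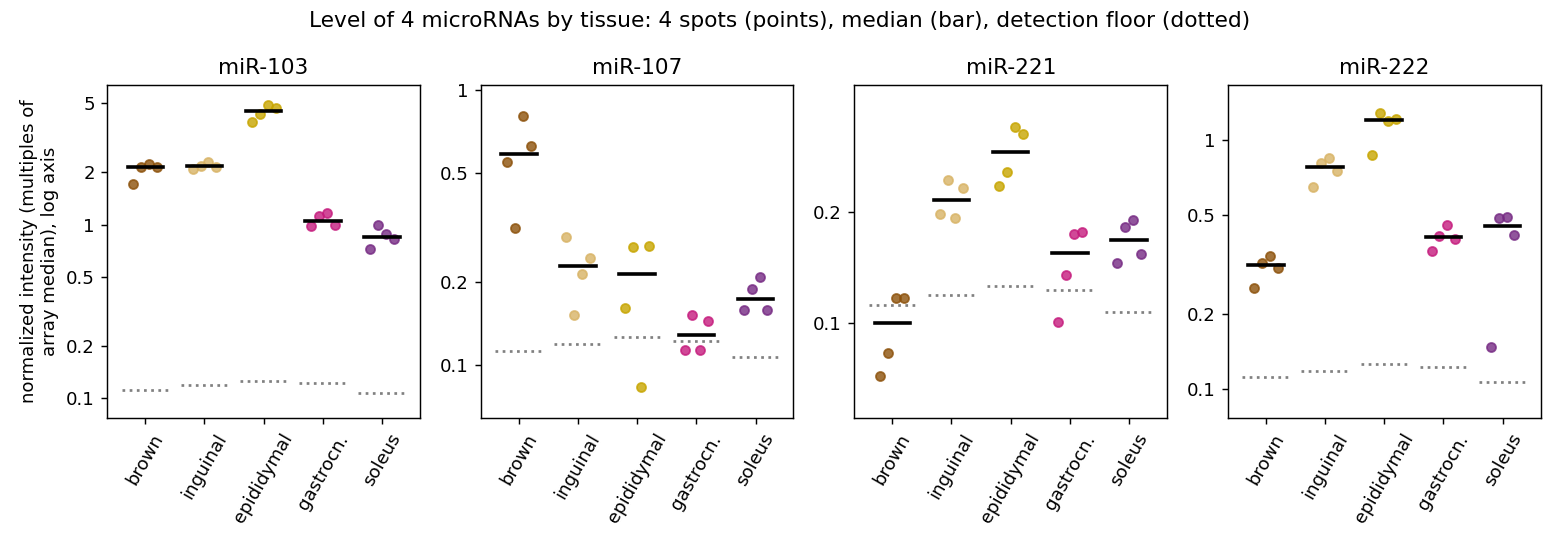
Normalized intensity (multiples of the array median, log axis) of miR-103, miR-107, miR-221 and miR-222 in 5 tissues with 1 array each. Points are the 4 spots of the probe, bars the deposited median and dotted lines the detection limit of 50 units. miR-103 and miR-222 are highest in epididymal fat at 4.52 and 1.20, miR-107 is highest in brown fat at 0.584, and miR-221 in brown fat lies under the limit.

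The comparison of brown fat with both white depots asks which microRNAs mark brown against white adipose tissue. A microRNA was counted as different where it was at least 2-fold apart in the same direction in every pair of arrays, and a level under the detection limit was raised to the lowest detected level of its array, which gives a lower bound. By this rule miR-107 was higher and miR-222 lower in brown fat, 1 of 4 in each direction. The background was 7.89% of 190 microRNAs higher in brown fat and 4.21% lower. miR-107 was 2.55-fold higher in brown than in inguinal fat, a log2 difference of 1.35 with a spot SE of 0.35. Against epididymal fat it was 2.72-fold higher, a log2 difference of 1.45 with a spot SE of 0.49. With each spot position alone the epididymal comparison gave log2 differences of 1.75, 0.23, 3.27 and 1.21, so that 1 of the 4 fell under 2-fold, and the inguinal comparison gave 0.90, 1.05, 1.91 and 1.35, with 1 of the 4 under it. miR-222 was 2.48-fold lower in brown than in inguinal fat and 3.82-fold lower than in epididymal fat, log2 differences of -1.31 (spot SE 0.12) and -1.93 (spot SE 0.16).

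miR-221 went the way of miR-222 in brown fat, but the limit of detection decided its count. It was at least 1.86-fold lower in brown than in inguinal fat and at least 2.52-fold lower than in epididymal fat. With the deposited brown value in place of the bound, the folds were 2.16 and 2.92, and it was then counted as different. It was counted too with either 75th percentile, quantile normalization and the spike-ins. miR-103 was 2.10-fold lower in brown than in epididymal fat and was level with inguinal fat, a ratio of 1.01. Without the inguinal array the rule is looser, since only 1 pair of arrays has to pass. All 4 members then differed between brown and epididymal fat, miR-107 higher and the other 3 lower in brown fat. The background was then 18 microRNAs higher and 23 lower of 178. In these bulk RNAs, fewer cells of a type that holds a microRNA and less of it per cell cannot be told apart.

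The median difference of the microRNAs detected on both arrays was not 0 and depended on the scaling. For brown against inguinal fat it was a log2 difference of 0.26 over 132 microRNAs, and -0.54 when arrays were scaled on the spike-ins. Relative to the median of 0.26, the log2 difference of brown minus inguinal fat was 1.09 for miR-107 and -1.57 for miR-222. For brown against epididymal fat the median was -0.12 over 139 microRNAs, and -0.49 when arrays were scaled on the spike-ins. Relative to the median of -0.12, miR-107 and miR-222 stood at 1.57 and -1.81. Over 6 other scalings, the miR-222 fold ranged from 2.34 to 4.31 against inguinal fat and from 3.39 to 4.91 against epididymal fat, and miR-222 was lower by over 2-fold in each. The miR-107 fold over inguinal fat ranged from 1.47 with the spike-ins to 2.70 with no scaling. It was under 2 with the spike-ins, with the 75th percentile of the probes detected on all arrays, and with a model-based background correction followed by quantile normalization, which also put the miR-107 fold over epididymal fat at 1.99.

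**Figure D2:**
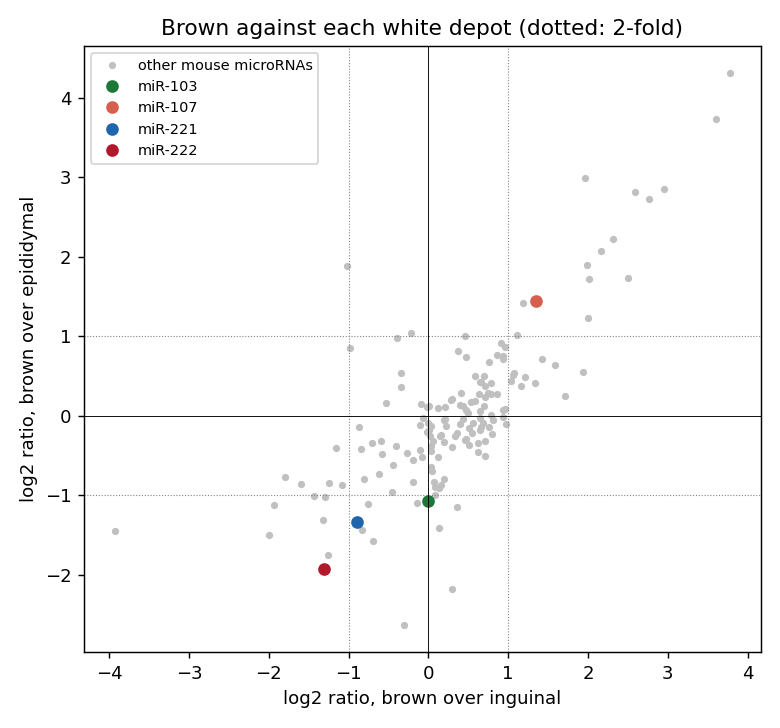
Log2 ratio of brown over inguinal fat (horizontal axis) against brown over epididymal fat (vertical axis) for 158 mouse microRNAs with a ratio in both, with 1 array per tissue and dotted lines at 2-fold. Grey points are the other microRNAs and coloured points the 4 members, with levels under the limit of 50 units raised to the lowest detected level. miR-107 lies at 1.35 and 1.45 in the upper right corner, miR-222 at -1.31 and -1.93 in the lower left, and miR-103 at -0.01 and -1.07 between them.

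Inguinal against epididymal fat compares a subcutaneous with a visceral white depot. miR-103 alone was counted as different, 2.08-fold lower in inguinal fat, so 0 of 4 were higher and 1 of 4 was lower, where the background was 5.81% of 172 microRNAs higher and 11.6% lower. miR-222 was 1.54-fold lower in inguinal fat (log2 difference -0.62, spot SE 0.15), miR-221 was 1.36-fold lower and miR-107 was 1.07-fold higher. Here the median microRNA was also lower in inguinal fat, by a log2 difference of -0.41 over 133 microRNAs. Relative to it miR-103 stood at -0.65, miR-222 at -0.22, miR-221 at -0.03 and miR-107 at 0.50. Under all 6 other scalings the miR-103 fold was under 2, between 1.43 and 1.96, and its direction did not turn. The miR-222 fold was between 1.05 and 1.52, lower in inguinal fat each time, so the gap between its white depots depended on the scaling. The direction of miR-221 turned, with log2 differences between -0.35 and 0.11.

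Brown fat against both muscles sets a thermogenic tissue beside muscles of fast and of more oxidative fibres. miR-103 and miR-107 were counted as higher in brown fat, 2 of 4, beside a background of 10% of 190 microRNAs higher, and 0 of 4 were lower, beside 13.2%. miR-103 was 2.04-fold higher than in gastrocnemius and 2.53-fold higher than in soleus. miR-107 was 4.54-fold higher than in gastrocnemius (log2 difference 2.18, spot SE 0.31) and 3.37-fold higher than in soleus (log2 difference 1.75, spot SE 0.30). The miR-107 fold over each muscle exceeded 2 under all 6 other scalings, with ranges of 2.79 to 5.11 and 2.36 to 3.72. That of miR-103 over gastrocnemius ranged from 1.59 to 2.30, and miR-103 was not counted with the 75th percentile of probes detected on all arrays, the mean of spots, or normexp background correction with quantile normalization. miR-222 was 1.29-fold lower in brown fat than in gastrocnemius and 1.44-fold lower than in soleus, and miR-221 at least 1.34-fold and 1.45-fold lower.

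Across all fat against both muscles, miR-103 alone was lower in the muscles by 2-fold in every pair of arrays, 1 of 4 beside a background of 4.35% of 207 microRNAs, and 0 of 4 were higher, beside 8.21%. Its level was 4.29-fold higher in epididymal fat than in gastrocnemius and 5.30-fold higher than in soleus. In inguinal fat it was 2.06-fold and 2.54-fold higher. miR-222 was 2.95-fold and 2.66-fold higher in epididymal fat than in gastrocnemius and soleus, 1.92-fold and 1.73-fold higher in inguinal fat, and lower in brown fat, so that fat as a class did not have one direction for miR-222. miR-221 split the depots in the same way, 1.89-fold and 1.74-fold higher in epididymal fat and 1.39-fold and 1.28-fold higher in inguinal fat than in gastrocnemius and soleus. Without the inguinal array, miR-103 was still the 1 member counted, beside 18 microRNAs higher and 11 lower in the muscles of 199. Under the 3 settings named for brown fat against muscle miR-103 was not counted.

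Between soleus and gastrocnemius 0 of 4 members differed in either direction, where the background was 2.84% of 176 microRNAs higher in soleus and 2.27% lower. miR-103 was 1.24-fold higher in gastrocnemius, with overlapping spots. miR-107 was 1.34-fold higher in soleus (log2 difference of gastrocnemius minus soleus -0.43, spot SE 0.15), with spots that did not overlap. miR-221 and miR-222 differed by 1.09-fold and 1.11-fold, with overlapping spots.

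The members of each pair were then set against each other through the difference of their log2 ratios, from which any single factor per array cancels. By level miR-103 and miR-107 were both higher in every fat depot than in each muscle, though white depot spots of miR-107 overlapped those of soleus. Among the depots and between the muscles their ratios had opposite signs, in 4 of the 10 pairs of tissues. The miR-103 ratio of brown to inguinal fat, -0.01, and the miR-107 ratio of inguinal to epididymal fat, 0.10, were near 0. Over the 10 pairs the difference of log2 ratios had a median size of 1.15 and exceeded 2 times its spot SE in 8. The largest was brown against epididymal fat, where the miR-103 ratio was -1.07 and the miR-107 ratio 1.45, a difference of -2.51 (spot SE 0.51), or 5.71-fold. Brown against inguinal fat gave -1.36 (spot SE 0.36), and inguinal against epididymal fat gave -1.16 (spot SE 0.45). Epididymal fat against soleus gave 2.10 (spot SE 0.43). The smallest was inguinal fat against gastrocnemius, at 0.21 (spot SE 0.24).

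These values rest in part on the noisy miR-107 probe. With each of the 4 spot positions taken alone, the brown against epididymal difference was -2.94, -1.24, -4.40 and -2.34, so that its size varied and its sign did not. For brown against inguinal fat the same 4 values were -1.18, -1.06, -1.94 and -1.35. Scalings that use a single factor per array cannot change these differences, so their agreement says nothing about stability. Quantile normalization gave -2.37 for brown against epididymal fat and -1.53 for brown against inguinal fat. With normexp background correction and quantile normalization the values were -2.12 and -1.40.

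On the authors' scale miR-221 and miR-222 went in the same direction in all 6 pairs of tissues in which both were detected on both arrays. Over these 6 pairs the difference of log2 ratios was between 0.03 and 0.65 in size with a median of 0.45. In 1 of 6, epididymal fat against gastrocnemius, it exceeded 2 times its spot SE, at -0.65 (spot SE 0.27): miR-222 was 2.95-fold and miR-221 1.89-fold higher in epididymal fat. The 4 pairs with brown fat were left out, since miR-221 was under the detection limit there. The spot SE of these differences ran from 0.22 to 0.47, so differences of that size lay within spot noise by this measure. It takes the spots of different arrays as independent, although each probe sat at the same positions on every array. The first spot of miR-222, for example, was its lowest on each array. An error paired by position was not computed, so the count past 2 times the spot SE is approximate. White fat against muscle nevertheless gave a negative difference each time, with miR-222 the more raised in white fat. Against gastrocnemius and soleus it was -0.46 and -0.43 for inguinal fat, and -0.65 and -0.61 for epididymal fat. With quantile normalization, alone or after normexp background correction, these lay between -0.95 and -0.17.

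**Figure D3:**
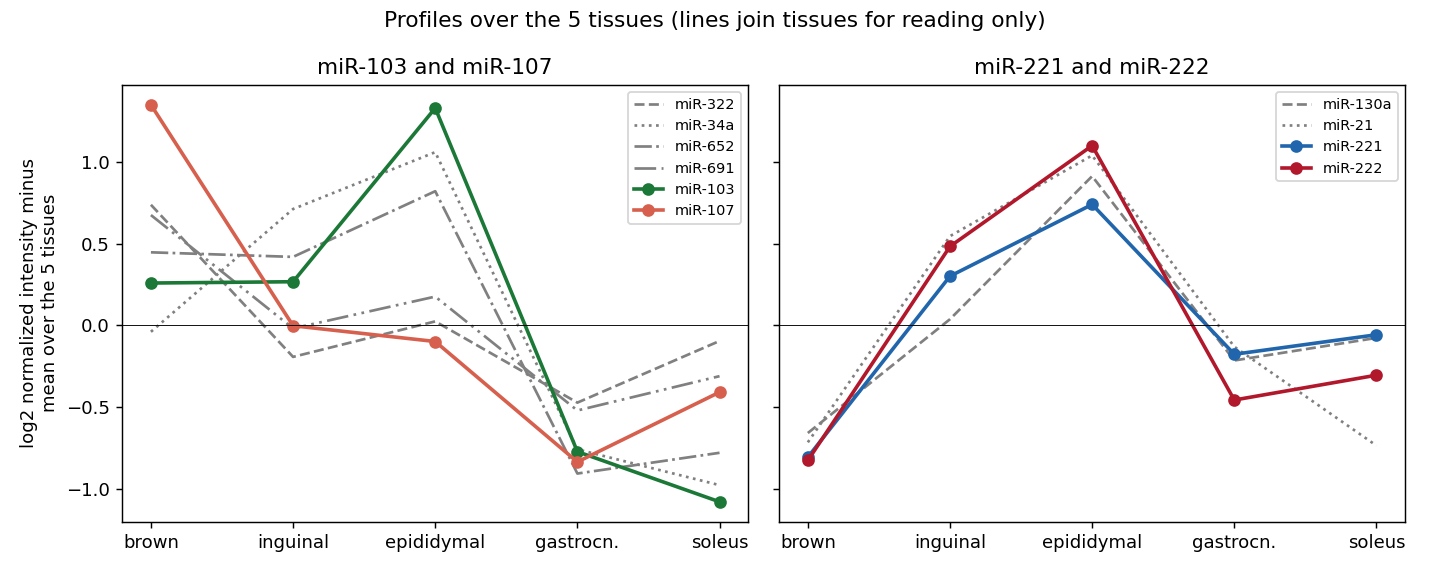
Log2 normalized intensity minus its mean over the 5 tissues, for miR-103 and miR-107 (left) and miR-221 and miR-222 (right), with 1 array per tissue. Grey lines are the 2 nearest profiles of each member that are not its partner, and miR-221 in brown fat is at its deposited value under the detection limit. miR-103 peaks in epididymal fat and miR-107 in brown fat, whereas miR-221 and miR-222 both peak in epididymal fat and are lowest in brown fat.

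**Figure D4:**
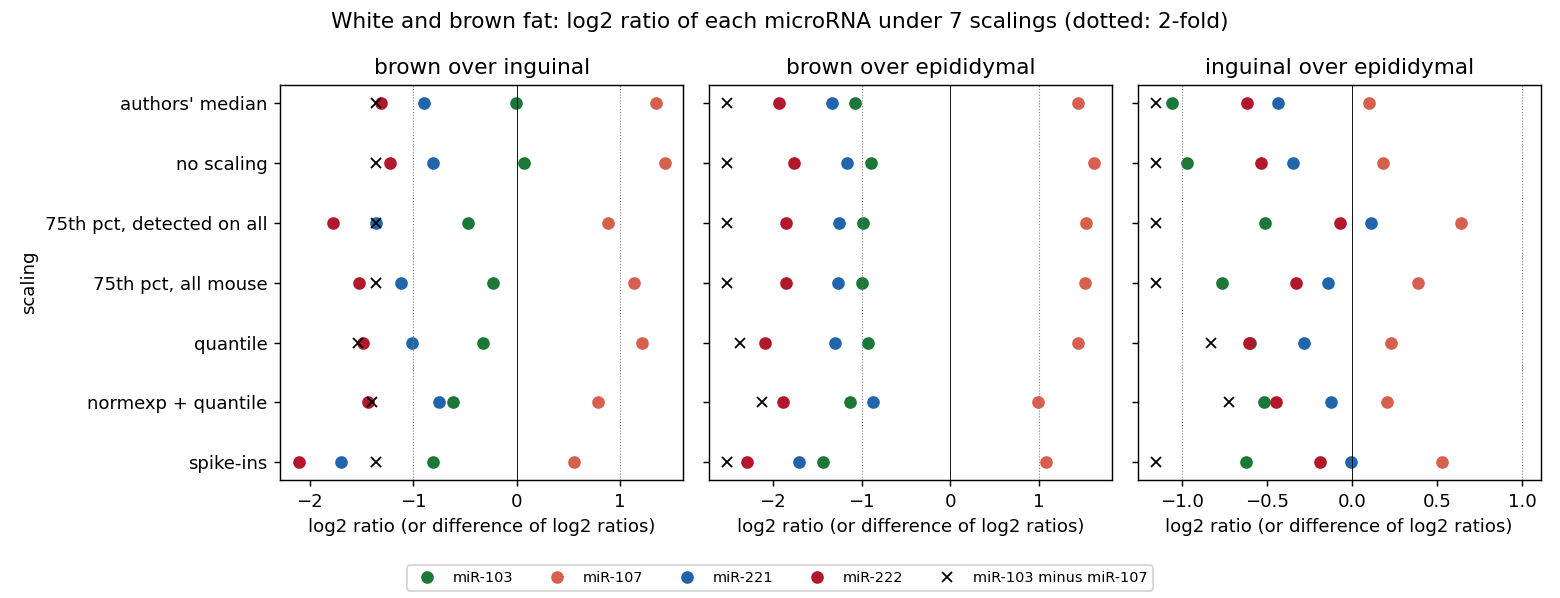
Log2 ratio of each member (circles) and the difference of the log2 ratios of miR-103 and miR-107 (crosses), under the authors' median and 6 other scalings (vertical axis), for 3 pairs of fat depots, with dotted lines at 2-fold. Levels of miR-221 in brown fat are bounds. Circles shift together under scalings that use a single factor per array, a factor that cancels from the crosses by construction. Quantile normalization and normexp with quantile normalization can move the crosses, to -2.37 and -2.12 for brown over epididymal fat.

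The likeness of profiles over the tissues was measured as the mean absolute difference of log2 levels, each centred on its mean, a description from which a single factor per array cancels. Over the 5 tissues, among the 123 mouse microRNAs detected on all arrays, those nearest to miR-103 were miR-34a at 0.224, miR-652 at 0.256 and miR-106b at 0.258. miR-34a, a microRNA induced by the tumour suppressor p53 and raised in obese fat, was at 0.273 in brown, 0.459 in inguinal and 0.586 in epididymal fat, and at 0.166 in gastrocnemius and 0.142 in soleus. miR-107 was the 47th nearest of 122 to miR-103, at 0.703 where the median was 0.770, and miR-103 was 71st of 122 from miR-107. Nearest to miR-107 were miR-691 at 0.275, miR-322 at 0.320 and miR-152 at 0.407.

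Nearest to miR-222 among the 123 were miR-21 at 0.199, miR-130a at 0.255 and miR-674 at 0.291. miR-21 is widely expressed and rises in inflamed and fibrotic tissue, and miR-130a is known to lower the adipogenic receptor Pparg. The normalized intensity of miR-21 was 4.65 in brown, 11.2 in inguinal and 15.7 in epididymal fat, 6.98 in gastrocnemius and 4.59 in soleus. That of miR-130a was 1.17, 1.90 and 3.49 in the 3 depots, 1.60 in gastrocnemius and 1.76 in soleus. miR-221 is not among the 123, since it was under the limit in brown fat. With its deposited brown value it lay 0.219 from miR-222, nearer than miR-130a, and its own nearest profiles were miR-130a at 0.128, miR-222 at 0.219 and miR-21 at 0.272.

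These neighbours depended on brown fat. Over the 4 other tissues, in which all 4 members were detected, miR-222 was 23rd of 125 from miR-221, at 0.269 beside a median of 0.426, and miR-221 was 12th of 125 from miR-222, beside a median of 0.616. Nearest to miR-221 were then miR-152 at 0.0464, miR-691 at 0.0966 and miR-191 at 0.103, and nearest to miR-222 were miR-339-5p at 0.0529, miR-10a at 0.0571 and miR-652 at 0.144. For miR-103 they were miR-34a at 0.198, miR-10a at 0.247 and miR-21 at 0.266, with miR-107 24th of 125. For miR-107 they were miR-484 at 0.109, miR-674* at 0.121 and miR-691 at 0.127, with miR-103 94th of 125. miR-34a for miR-103 and miR-691 for miR-107 were the neighbours named in both.

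miR-322 belongs to the miR-15/16 group, whose mature strands also carry AGCAGC near the 5′ end, but starting at base 2 rather than at base 1 as in miR-103 and miR-107. The shift is shown with the seed in capitals, from RefSeq on GRCm38.p6.
mmu-miR-16-5p: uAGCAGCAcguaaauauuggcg
mmu-miR-322-5p: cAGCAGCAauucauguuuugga
mmu-miR-503-5p: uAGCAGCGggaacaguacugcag
mmu-miR-107-3p: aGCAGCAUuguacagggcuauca
All 7 members of this group on the array (miR-15a, miR-15b, miR-16, miR-195, miR-322, miR-497 and miR-503) were detected in every tissue. In brown against both white depots 0 of 7 were higher, beside 7.89% of all, and 0 of 7 lower, beside 4.21%. The log2 difference, averaged over the 2 depots, had a median of 0.54 over the 7, beside 0.05 over all 190 microRNAs. miR-322 was at 1.45 in brown fat, 0.762 in inguinal fat, 0.886 in epididymal fat, 0.628 in gastrocnemius and 0.816 in soleus. The 1 call in the group over the 5 comparisons was miR-503, 3.17-fold higher in soleus than in gastrocnemius, where the background was 2.84%. In inguinal against epididymal fat 0 of 7 were called, and miR-15b was called higher under 5 of the 6 other scalings.

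A list of 32 other microRNAs tied to adipocytes, obesity or insulin was described in the same comparisons. In brown against both white depots 4 of 30 were higher, beside 7.89% of all, and 2 of 30 lower, beside 4.21%, with a median of the averaged log2 difference of 0.31 beside 0.05 over all. The 4 were miR-378, made from an intron of the coactivator gene Ppargc1b, miR-193b, needed for brown adipocyte differentiation in cell studies, miR-455 and miR-203, all of which are also on the brown adipocyte marker list. The smaller of the folds over the 2 white depots was 3.32 for miR-378, 3.90 for miR-455 and 2.34 for miR-203, and miR-193b was at least 6.63-fold higher. The 2 lower were miR-146b, an inhibitor of inflammatory signalling, and miR-21, whose smaller folds were 2.81 and 2.40; miR-146b is also a leukocyte marker. Over the 6 other scalings, 3 to 4 were higher and 2 to 4 lower. In inguinal against epididymal fat 3 of 29 were higher (miR-196a, miR-455 and miR-155), beside 5.81% of all, and 3 of 29 lower (miR-30a, miR-335-5p and miR-99a), beside 11.6%, and the list's median of -0.59 stood beside -0.41 over all. Under each of the 6 other scalings miR-335-5p was the 1 lower, and 2 to 6 were higher. In brown fat against both muscles 3 of 29 were higher, beside 10% of all, and 2 of 29 lower, beside 13.2%. Between both muscles and all fat 0 of 30 were higher, beside 8.21% of all, and miR-203 alone was lower, by at least 3.43-fold, beside 4.35%. Between the muscles 0 of 28 differed, beside 2.84% and 2.27%.

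Markers of other cells moved along some of the same axes. The summed normalized intensity of 8 leukocyte microRNAs was 6.46 in brown, 25.6 in inguinal and 12.5 in epididymal fat, 4.32 in gastrocnemius and 3.66 in soleus, with 6 to 8 of 8 detected. It was higher in both white depots than in brown fat, as were miR-221 and miR-222, but was highest in inguinal and not epididymal fat. Of 5 epithelial microRNAs of the miR-200 family, 4 were detected in epididymal fat, where miR-103 and miR-222 peaked, with a sum of 1.71 and 0 of 5 detected elsewhere; miR-429 was at 0 units in brown fat and soleus. The sum of 6 smooth muscle and stromal microRNAs was 10.4 in brown, 8.58 in inguinal and 12.6 in epididymal fat, 12.5 in gastrocnemius and 11.6 in soleus. Most of this sum was miR-143, at 8.36 in brown, 4.94 in inguinal and 9.25 in epididymal fat. miR-145 was likewise lowest in inguinal fat. The listed miR-199 strands and miR-214 were instead lowest in brown fat, as was miR-222. Their brown levels ran from 0.107, under the detection limit, to 0.547. In brown against white fat 2 of the 6 listed were lower, beside 4.21% of all. In brown fat against both muscles 4 of 6 were lower, beside 13.2%.

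The 2 endothelial strands of miR-126 summed to 13.2 in brown, 6.30 in inguinal and 9.64 in epididymal fat, and to 9.20 and 9.79 in gastrocnemius and soleus. Like miR-107 they were highest in brown fat. The 7 striated muscle microRNAs summed to 6.50 in brown fat, 0.491 in inguinal and 0.369 in epididymal fat, against 36.0 and 54.7 in the muscles, and 4 of 7 were detected in brown fat. The red cell pair miR-144 and miR-451 summed to 8.31, 4.0 and 8.17 in the depots and to 5.52 and 5.49 in the muscles. The part of these cells in the differences of miR-103, miR-107, miR-221 and miR-222 was not tested.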

How the data were processed

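MicroRNA of 5 mouse tissues was read on 1-colour arrays, with 1 array for each. The authors deposited, per the file headers, a background-subtracted intensity for each probe, which equals the median of its 4 spots (largest gap 0.0 units). The authors' normalized intensity is, per the file headers, the ratio of that value to a median taken on each array over the microRNAs that exceeded 50 on every array (445.75, 420.5, 396.0, 407.75 and 467.75 units for brown, inguinal, epididymal, gastrocnemius and soleus, read as the ratio of the deposited columns, since that median could not be rebuilt exactly from the probes). The sources used here name no scanner or software. Levels under 50 units were raised to the higher of their own value and the lowest detected normalized value of that array; no fold was given where both sides were under it. A difference needed 2-fold in every pair of arrays. Spot errors are the standard error of log2 over 4 spots per array, combined as if the spots of different arrays were independent. Sequences and gene spans are those of RefSeq, GRCm38.p6, and all 4 members matched. The rule for named microRNAs took the members, their star strands, the 3 nearest profiles of each, and 2 lists. The members and lists were chosen with earlier results of these data known. With 1 array per tissue there was no test and no batch to examine, and precision is limited by the number of arrays. The counting was checked on simulated data in which bright probes alone were changed, well past 2-fold and with little noise. That check does not cover calls near the detection limit or on a probe as noisy as that of miR-107. Alternatives were 6 scalings (no scaling, 75th percentiles of 2 probe sets, quantile, normexp with offset 50 in limma 3.58.1 under R 4.3.3, spike-ins), a limit of 100 units, deposited values under the limit, the mean of spots and a 1.5-fold limit. Python 3.11.15, numpy 2.4.6, pandas 2.3.3 and matplotlib 3.10.9 were used.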

Additional observations from a re-analysis of the deposited data

How the results depend on the processing

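No paired analysis was possible because a group held 1 array and no replicate numbers. Leaving out the inguinal array, reading each spot position alone, taking profiles without brown fat and recounting the lists were chosen after seeing the data. Of the 4 members, 2 differed between brown and white fat: this became 1 (miR-222) with normexp and quantile normalization. It became 4 without the inguinal array, where only 1 pair of arrays had to pass and 18 microRNAs were higher and 23 lower of 178. Under the other settings 2 or 3 were counted, miR-222 among them each time. The 1 member between inguinal and epididymal fat, miR-103, became 2 with the 1.5-fold limit (miR-222 added) and 0 under no scaling, either 75th percentile, quantile, normexp with quantile, and spike-in scaling. With the 75th percentile of probes detected on all arrays, the mean of spots, or normexp with quantile, miR-103 was lost, leaving 0 between muscle and fat (1 as reported) and 1, miR-107, between brown fat and muscle (2 as reported). Between the muscles the count was 0 under every setting run. The cause of these moves was not tested. Of 483 single values under other settings, 424 stayed within the spot SD of the reported value and 59 did not, 21 of them with the spike-ins. Of those past 2-fold, 0 turned direction. The spot SD is wide for a noisy probe, and a value then stays within it more readily. It was 1.01 for the brown against epididymal difference of miR-103 and miR-107. Part of the 424 was also fixed in advance, since differences within a pair of members cannot move under a single factor per array. Deposited values under the limit can likewise move only ratios with miR-221 in brown fat. Of 208 values from 1 spot, 46 moved. Counts over all microRNAs moved too: 15 higher and 8 lower in brown than white fat became 11 and 20 with the spike-ins, and 10 higher and 20 lower in inguinal than epididymal fat became 25 and 7 with the 75th percentile of probes detected on all arrays, 18 and 11 with that of all mouse probes, 15 and 12 with quantile, 12 and 6 with normexp and quantile, 21 and 10 with the spike-ins and 11 and 12 with no scaling. Low signal limits miR-107 and miR-221, read at 52.5 to 260.5 and 44.5 to 115.5 units.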
